A study of Homo sapiens with 10 samples.

Results

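Ribosome biogenesis and nucleolar genes were followed in RPE-1 cells, an established line of telomerase-immortalized human retinal pigment epithelial cells, after 4 h with SFN (sulforaphane, an isothiocyanate from cruciferous vegetables) or with its vehicle DMSO. The members are 36 genes chosen by symbol for their place in ribosome production, of 28380 genes in the deposited counts, and all 36 had enough counts to be tested. Both groups held 5 replicates of 50000 cells, and SFN was given at 25 µM. The groups thus compare a single line, dose and time with vehicle. Nothing in the labels says that the replicates were separate cultures, so p-values measure the spread between these libraries.

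Ribosomes are built in the nucleolus, where RNA polymerase I (Pol I) transcribes a long precursor of the ribosomal RNAs. Small nucleolar RNA-protein particles (snoRNPs) of the box C/D class methylate that precursor and those of the box H/ACA class convert uridines to pseudouridines. A large particle called the small subunit processome folds and cuts the part that becomes the 40S subunit, while other factors assemble the 60S subunit. Production is tied to growth and nutrient signaling, and MYC, a transcription factor that binds the E-box motif, is known for driving many genes of this pathway.

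Total counts ranged from 15689294 to 20666692 in the DMSO libraries and from 12375860 to 17308706 in the SFN libraries, and 13378 genes were tested. The lowest count of a member in a library was 21, for NOP2, and 34 members had at least 100 counts in every library. Of 14 genes in the file from a list of retinal pigment epithelium markers, 5 (BEST1, MITF, OTX2, KRT8 and KRT18) reached 1 CPM (counts scaled by library size with the TMM method) in every library and 7, RPE65 among them, stayed under 1 CPM in every library. Blood cell markers reached at most 0.358 CPM. Of 8 known targets of the SFN-responsive factor NRF2, HMOX1, GCLM and SLC7A11 were called higher, with log2 fold changes of 1.42, 1.30 and 1.61. The other 5 were not called, at 0.61 for TXNRD1, 0.40 for SRXN1, 0.31 for NQO1, 0.28 for OSGIN1 and -0.30 for GCLC. DMSO replicate 1 stood apart from the other libraries: relative to the mean of all libraries its log2 CPM changed by -0.271 for each doubling of transcript length, against 0.0872 to 0.148 in the other DMSO replicates. The same slope was -0.183 to 0.109 in the SFN libraries, 4 of which were negative. Where leaving out DMSO replicate 1 changed the call of a member or moved its value by over 1.5 times, both values are given.

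Promoters of members were read from RefSeq (GRCh38.p14), from 250 bases before to 50 bases after each transcription start listed, and 30 of the 36 members matched. RRS1, BOP1, NOLC1, TCOF1, RRP12 and NOP58 did not. The E-box CACGTG, which reads the same on both strands, was in the window of 12 members (40%), against 12.6% of 9699 tested genes with a promoter in the same table. Stretches of 90 bases, from 60 before the start, are shown for some of the members whose E-box lies close to the start. Some of those shown were called lower and others were not. PES1, NOP14 and UTP4, not called by edgeR with all libraries, and BYSL, called lower, also have an E-box near the start and are not shown. The E-box or, on either strand, the ETS family motif CCGGAAG is in capitals. WDR43 (chr2:28894607-28894696, plus strand), GNL3 (chr3:52685972-52686061, plus strand) and RRP9 (chr3:51941875-51941964, minus strand) were lower with SFN. For UTP20 (chr12:101280045-101280134, plus strand), FBL (chr19:39846350-39846439, minus strand) and NOP10 (chr15:34343107-34343196, minus strand) no difference was called by edgeR with TMM scaling of all libraries. Without DMSO replicate 1, UTP20 was called lower and NOP10 higher.
WDR43: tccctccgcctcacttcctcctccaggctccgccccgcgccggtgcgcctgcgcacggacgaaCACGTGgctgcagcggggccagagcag
GNL3: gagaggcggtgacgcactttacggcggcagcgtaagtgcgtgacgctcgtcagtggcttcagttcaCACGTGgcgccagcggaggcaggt
RRP9: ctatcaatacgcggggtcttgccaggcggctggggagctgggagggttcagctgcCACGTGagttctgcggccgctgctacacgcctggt
UTP20: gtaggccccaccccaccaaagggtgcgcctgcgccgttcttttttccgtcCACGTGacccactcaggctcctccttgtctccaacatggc
FBL: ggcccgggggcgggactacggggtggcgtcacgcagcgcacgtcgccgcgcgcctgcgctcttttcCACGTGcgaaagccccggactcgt
NOP10: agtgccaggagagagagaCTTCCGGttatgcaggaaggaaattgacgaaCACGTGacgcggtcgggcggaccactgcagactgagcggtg

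The ETS motif was in 11 of the 30 matched members (36.7%), against 23.2% of the tested genes. It lies near the start in POLR1B (chr2:112542405-112542494, plus strand), the Pol I member that changed most, and in RRN3 (chr16:15094243-15094332, minus strand), the Pol I factor that changed the other way, and both stretches are shown for that contrast, on the opposite strand to the spelled motif.
POLR1B: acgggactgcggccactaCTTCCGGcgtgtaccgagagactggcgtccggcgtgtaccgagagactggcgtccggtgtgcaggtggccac
RRN3: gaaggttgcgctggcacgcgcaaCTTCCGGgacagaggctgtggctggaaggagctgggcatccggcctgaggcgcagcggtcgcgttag

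Most members were lower in SFN than in DMSO. The comparison asks how far SFN changed the transcripts of the ribosome production machinery. It used edgeR's quasi-likelihood test over all genes tested, and a gene was called when its adjusted p was under 0.05. Of the 36 members, 13 were called lower (36.1%), against 13.9% of all genes tested, and 1, RRN3, was called higher, against 9.07%. For 31 members the log2 fold change was negative (30 to 34 under other scalings), and the median was -0.39 (quartiles -0.64 and -0.20), against -0.03 over all genes tested. In 15 members (41.7%) the values of the groups did not overlap, against 19.9% of all genes. The members took 0.86 to 1.01% of the counts in DMSO libraries and 0.727 to 0.779% in SFN libraries. Because reads are shares of a bulk library, fewer transcripts in each cell, fewer cells with them and a rise of other transcripts cannot be told apart.

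**Figure D1:**
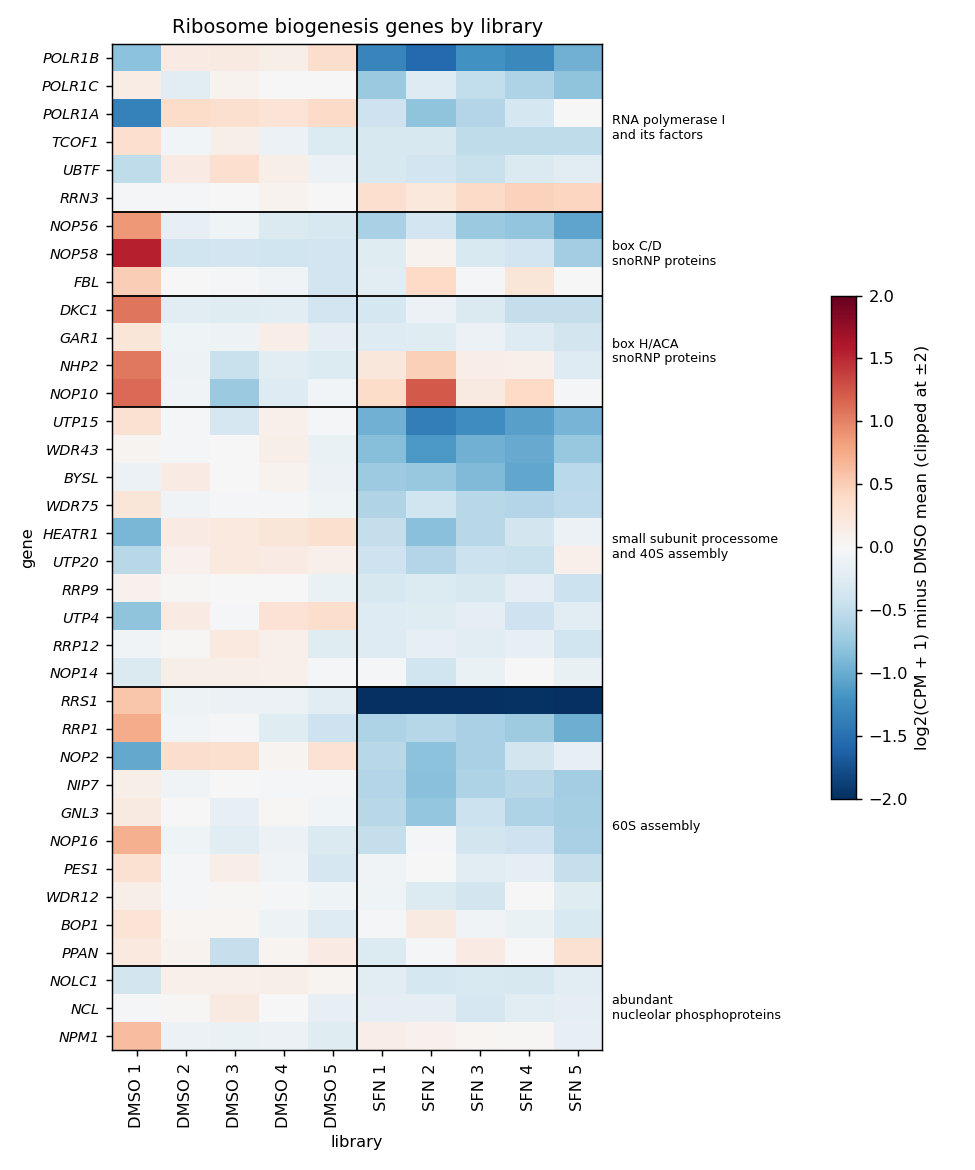
Each row is a member and each column a library, and the color is log2(CPM + 1) minus the gene's DMSO mean, clipped at 2 in either direction. RRS1 is at or near the clipping limit in all 5 SFN libraries, and in DMSO replicate 1 NOP58, DKC1, NHP2, NOP10 and NOP56 are high while POLR1A, NOP2 and HEATR1 are low.

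By role, calls of lower were made for 3 of 6 genes of Pol I and its factors, 1 of 3 box C/D proteins, 5 of 10 genes of the small subunit processome and 40S assembly and 4 of 10 genes of 60S assembly. None of the 4 box H/ACA proteins and none of the 3 abundant nucleolar phosphoproteins was called by the main edgeR fit. That fit used TMM scaling, all libraries and no length correction. At an unadjusted p under 0.05 that fit had 1 and 2 genes of these groups, all with negative fold changes. Over all 13378 genes tested, 2676 were lower and 1948 higher at that p. Of the genes in these groups, DESeq2 called 0 and 2 lower, beside 15.9% of all genes. On quantile normalized values limma-voom called none of them, beside 11.5% lower and 10% higher of all genes. With quality weights limma-voom called 1 and 2 lower and 2 and 1 higher, where 30.2% and 29% of all genes were called in those directions. Whether the roles differ was not tested. Without DMSO replicate 1, 22 members were called lower and 3 higher, where 23.5% and 22.5% of 13566 genes tested were called in those directions. Those 22 included 9 of 10 genes of the small subunit processome and 40S assembly, 5 of 6 of Pol I and its factors and 5 of 10 of 60S assembly, and the median of the members lay 0.37 below that of all genes on the log2 scale with or without that library.

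Genes of Pol I and its factors were called in both directions. POLR1B (ENSG00000125630), which encodes a catalytic subunit, had 20.7, 42.1, 42.6, 40.5 and 47.8 CPM in DMSO replicates 1 to 5 and 14.3, 12.1, 15.5, 14.7 and 18.7 CPM in SFN replicates 1 to 5. All SFN libraries lay below all DMSO libraries, with DMSO replicate 1 closest to them. The log2 fold change was -1.36 ± 0.21 (SE, n = 5 and 5; edgeR adjusted p = 0.00062), a mean SFN level of 38.9% of DMSO, and without DMSO replicate 1 it was -1.53. POLR1C, a subunit that Pol I shares with Pol III, measured 12.4 to 16.4 CPM in DMSO and 7.98 to 12.1 CPM in SFN. These ranges came close but did not overlap, and the log2 fold change was -0.63 ± 0.14 (edgeR adjusted p = 0.0065).

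POLR1A, the largest subunit of the enzyme, had 27.4, 92.3, 90.2, 87.3 and 94.0 CPM in DMSO replicates 1 to 5 and 53.5, 40.4, 47.4, 56.1 and 70.9 CPM in SFN replicates 1 to 5. The first DMSO library was below every SFN library and the other 4 were above all of them. The log2 fold change of -0.54 ± 0.29 was not called with all libraries (edgeR adjusted p = 0.21), and without DMSO replicate 1 it was -0.76 (adjusted p = 3e-04). UBTF, which binds the ribosomal RNA gene and opens it for Pol I, had the same form. Its DMSO values were 149 CPM in replicate 1 and 196 to 268 CPM in the others, against 156 to 181 CPM in SFN. For UBTF the log2 fold change of -0.36 ± 0.15 (edgeR adjusted p = 0.10) became -0.47 (adjusted p = 0.001) without that replicate.

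RRN3 (ENSG00000085721), the factor that brings Pol I to its promoter, was the single member called higher with all libraries. It had 93.2, 93.7, 94.8, 99.6 and 94.9 CPM in DMSO replicates 1 to 5 and 120, 110, 125, 132 and 129 CPM in SFN replicates 1 to 5. The DMSO values sat close together and every SFN library was above them. The log2 fold change was 0.37 ± 0.09 (edgeR adjusted p = 0.010), or 129% of the DMSO mean, and under 2 of 19 alternative settings, library size only and no low-count filter, its adjusted p was above the threshold, at 0.091 and 0.084. The file also holds 2 pseudogenes of RRN3, with a summed mean of 3.19 CPM. TCOF1, which encodes treacle, a nucleolar partner of Pol I and UBTF, measured 136 to 207 CPM in DMSO and 115 to 131 CPM in SFN. It fell by 0.45 ± 0.12 on the log2 scale (edgeR adjusted p = 0.020), with no overlap between the groups.

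**Figure D2:**
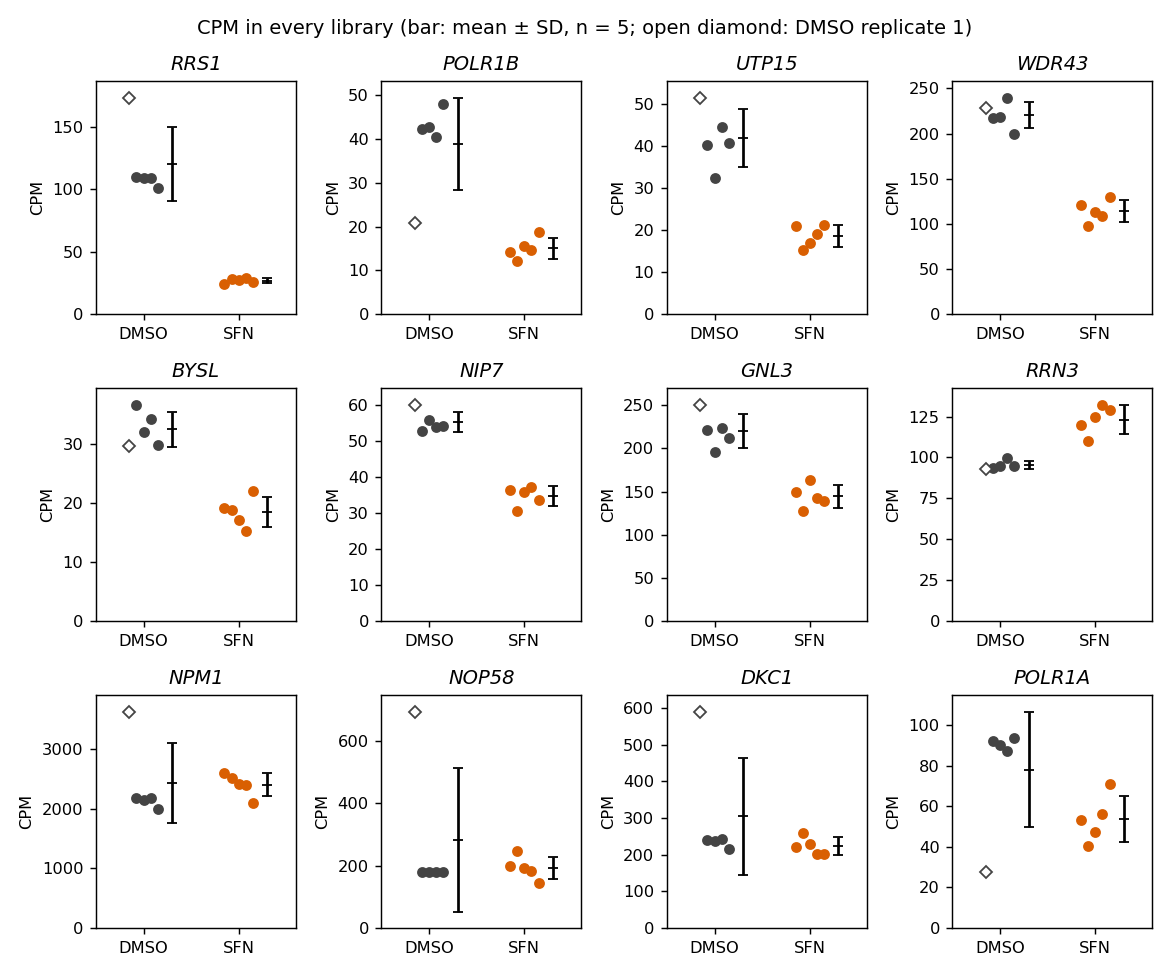
CPM of 12 members in every library, with DMSO replicate 1 as an open diamond and the mean ± SD of each group (n = 5) beside the points. RRS1, POLR1B, UTP15, WDR43, BYSL, NIP7 and GNL3 are lower in all SFN libraries and RRN3 higher, while for NPM1, NOP58, DKC1 and POLR1A the DMSO replicate 1 point lies far from the other DMSO points.

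The largest change was in 60S assembly. RRS1 (ENSG00000179041), a factor that helps to bring the 5S RNA particle into the precursor of the 60S subunit, had 173, 110, 109, 109 and 101 CPM in DMSO replicates 1 to 5 and 24.3, 28, 27.3, 29.2 and 26 CPM in SFN replicates 1 to 5. Every SFN library was far below the lowest DMSO library. SFN changed it by -2.16 ± 0.16 on the log2 scale (edgeR adjusted p = 2.9e-06), a mean SFN level of 22.4% of DMSO, and across 19 alternative settings the value ranged from -2.22 to -2. RRS1 has a single exon, and GENCODE annotates other transcripts over it on both strands.

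NIP7, which takes part in processing the precursors of the large subunit RNAs, had 60.1, 52.9, 55.9, 53.9 and 54.2 CPM in DMSO replicates 1 to 5 and 36.6, 30.5, 35.8, 37.4 and 33.7 CPM in SFN replicates 1 to 5. Every SFN value lay below every DMSO value, at a mean of 62.8% of DMSO (log2 fold change -0.67 ± 0.10, edgeR adjusted p = 0.00039). GNL3, or nucleostemin, a GTP-binding protein of the nucleolus, had 250, 221, 196, 223 and 212 CPM in DMSO replicates 1 to 5 and 149, 128, 163, 143 and 139 CPM in SFN replicates 1 to 5. The groups did not overlap, and the log2 fold change was -0.61 ± 0.10 (edgeR adjusted p = 0.0013). RRP1, another factor of 60S assembly, had 137 CPM in DMSO replicate 1, 60.8 to 80.0 CPM in the other DMSO replicates and 40.8 to 54.3 CPM in SFN. Its log2 fold change was -0.77 ± 0.20 (edgeR adjusted p = 0.016) with all libraries and -0.54 (adjusted p = 0.0011) without DMSO replicate 1.

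The other 6 genes of 60S assembly were not called. PES1, BOP1 and WDR12, which form the PeBoW complex, had log2 fold changes of -0.20 ± 0.14, -0.07 ± 0.13 and -0.19 ± 0.10, with approximate 95% intervals of -0.51 to 0.12, -0.37 to 0.22 and -0.43 to 0.04. Without DMSO replicate 1 the values were -0.12, 0 and -0.16, and none of the 3 was called under any of the 19 alternatives. NOP2, a methyltransferase acting on the large subunit RNA, had 1.43 CPM in DMSO replicate 1, 4.16 to 5.29 CPM in the other DMSO replicates and 1.81 to 3.39 CPM in SFN, from as few as 21 counts. Its log2 fold change was -0.74 ± 0.32 (edgeR adjusted p = 0.12) and without DMSO replicate 1 it was -0.96 (adjusted p = 0.001). NOP16 had -0.43 ± 0.20 with all libraries and -0.21 without that replicate, and neither was called (edgeR adjusted p = 0.15 in both). PPAN had 0.03 ± 0.24, or 0.09 without it, from at most 52 counts in a library and in a span that overlaps P2RY11 on the same strand.

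In the small subunit processome, all 10 members had negative fold changes and 5 fell. UTP15 (ENSG00000164338), part of the subcomplex that also works in Pol I transcription, had 51.4, 40.2, 32.5, 44.5 and 40.8 CPM in DMSO replicates 1 to 5 and 20.9, 15.3, 16.9, 19.0 and 21.3 CPM in SFN replicates 1 to 5. The groups were well apart, at a mean SFN level of 44.6% of DMSO (log2 fold change -1.16 ± 0.14, edgeR adjusted p = 0.00014). WDR43, of the same subcomplex, had 228, 217, 218, 239 and 200 CPM in DMSO replicates 1 to 5 and 121, 98.2, 113, 109 and 130 CPM in SFN replicates 1 to 5. The lowest DMSO library was well above the highest SFN library, and the log2 fold change was -0.95 ± 0.10 (edgeR adjusted p = 6.2e-05). BYSL, a factor of late 40S maturation, had 29.7, 36.6, 32.1, 34.2 and 29.9 CPM in DMSO replicates 1 to 5 and 19.2, 18.8, 17.1, 15.2 and 22 CPM in SFN replicates 1 to 5. It too showed no overlap, with a log2 fold change of -0.82 ± 0.12 (edgeR adjusted p = 0.00054).

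WDR75, also of the UTP15 subcomplex, had 72.0 to 90.3 CPM in DMSO and 50.3 to 58.1 CPM in SFN, and fell by 0.54 ± 0.10 on the log2 scale (edgeR adjusted p = 0.002). RRP9, a protein of the U3 particle, had 34.3 to 39.7 CPM in DMSO and 27.5 to 32.7 CPM in SFN, with a log2 fold change of -0.32 ± 0.09 (edgeR adjusted p = 0.029). That call was the least steady of the 14, made in 11 of 19 alternatives. HEATR1, a large scaffold protein of the processome, followed the POLR1A form. HEATR1 had 59.4, 127, 130, 134 and 142 CPM in DMSO replicates 1 to 5 and 81.2, 62.9, 76.7, 87.7 and 104 CPM in SFN replicates 1 to 5. DMSO replicate 1 was below every SFN library and the other 4 DMSO libraries above all of them. Its log2 fold change was -0.52 ± 0.22 (edgeR adjusted p = 0.11) and -0.70 (adjusted p = 0.00034) without that library. UTP20, also a large scaffold protein, had 83.9 CPM in DMSO replicate 1, 132 to 142 CPM in the other DMSO replicates and 81.7 to 133 CPM in SFN. The groups overlapped with or without DMSO replicate 1. For UTP20 the log2 fold change was -0.36 ± 0.17 (edgeR adjusted p = 0.16) and -0.48 (adjusted p = 0.0052) without that library. UTP4 went from -0.32 to -0.48 and RRP12, a factor of pre-40S export, from -0.25 to -0.28, and by edgeR's test neither was called with all libraries and both were called without that replicate (adjusted p = 0.00094 and 0.03). NOP14 was the one member of the group not called either way, at -0.15 ± 0.12 with all libraries.

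**Figure D3:**
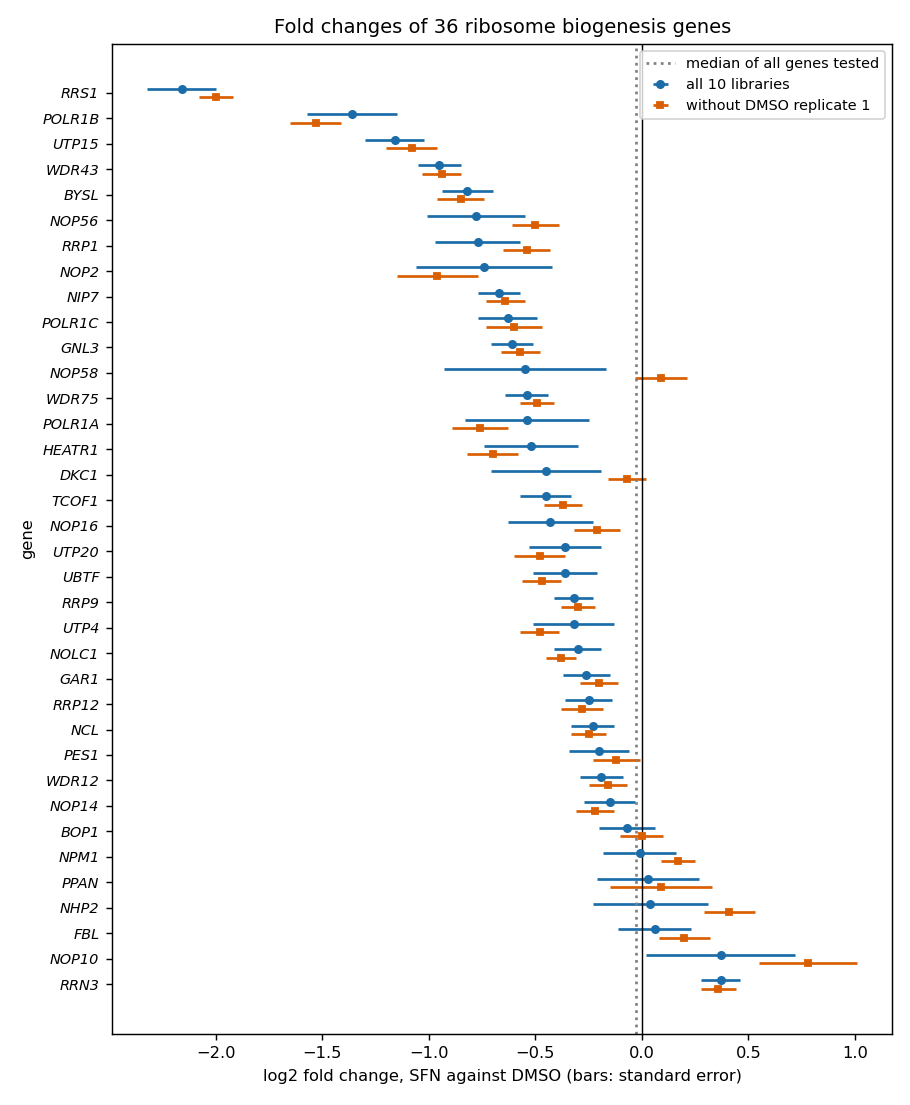
Log2 fold change of SFN against DMSO for the 36 members, with all 10 libraries (circles) and without DMSO replicate 1 (squares), bars giving the standard error and the dotted line the median of all genes tested. RRS1 (-2.16) and POLR1B (-1.36) lie farthest to the left, and the estimates for NOP58 and DKC1 move towards 0 without that replicate.

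Of the proteins of the modification particles, the main edgeR fit called NOP56 alone. NOP56, a core protein of box C/D particles, had 546, 265, 280, 245 and 239 CPM in DMSO replicates 1 to 5 and 191, 229, 178, 172 and 144 CPM in SFN replicates 1 to 5. The groups did not overlap, although DMSO replicate 1 was far above the rest. The log2 fold change was -0.78 ± 0.23 (edgeR adjusted p = 0.029) and without that library it was -0.50 (adjusted p = 0.0026). Its partner NOP58 had 693, 178, 180, 179 and 180 CPM in DMSO replicates 1 to 5 and 198, 247, 191, 181 and 145 CPM in SFN replicates 1 to 5. A single library thus set its log2 fold change of -0.55 ± 0.38, which was 0.09 without it, and neither passed the test (edgeR adjusted p = 0.35 and 0.54). FBL, the methyltransferase of these particles, had 186 to 342 CPM in DMSO and 207 to 321 CPM in SFN, a log2 fold change of 0.06 ± 0.17 with an approximate 95% interval of -0.33 to 0.46. Without DMSO replicate 1 it was 0.20 (edgeR adjusted p = 0.20).

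Among the box H/ACA proteins, DKC1, the pseudouridine synthase, had 589 CPM in DMSO replicate 1, 216 to 242 CPM in the other DMSO replicates and 201 to 260 CPM in SFN. Its log2 fold change was -0.45 ± 0.26 with all libraries and -0.07 without that replicate, and neither was called. NHP2 and NOP10, small proteins of the same particle, had 228 and 35.6 CPM in DMSO replicate 1, above 80.2 to 102 CPM and 9 to 15.2 CPM in the other DMSO replicates. SFN libraries had 91.4 to 154 CPM of NHP2 and 15.3 to 38.2 CPM of NOP10. Their log2 fold changes were 0.04 ± 0.27 and 0.37 ± 0.35 with all libraries, and 0.41 (edgeR adjusted p = 0.016) and 0.78 (adjusted p = 0.014) without it. GAR1, the remaining protein, had 81.4 to 111 CPM in DMSO and 72.0 to 85.6 CPM in SFN, at -0.26 ± 0.11 (edgeR adjusted p = 0.11).

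The 3 abundant nucleolar phosphoproteins were not called by the main edgeR fit. NPM1, a chaperone of ribosome assembly, had 3620, 2180, 2150, 2180 and 1990 CPM in DMSO replicates 1 to 5 and 2590, 2510, 2420, 2390 and 2100 CPM in SFN replicates 1 to 5. SFN values fell within the DMSO range, and the log2 fold change was -0.01 ± 0.17, with an approximate 95% interval of -0.40 to 0.37. Without DMSO replicate 1 it was 0.17 (edgeR adjusted p = 0.094). The file holds 31 pseudogenes of NPM1, with a summed mean of 60.6 CPM, and its count is uncertain where reads match both. NCL (nucleolin) had 2290 to 2910 CPM in DMSO and 2030 to 2260 CPM in SFN. These did not overlap, although the log2 fold change of -0.23 ± 0.10 missed the threshold (edgeR adjusted p = 0.13). Without DMSO replicate 1 it was -0.25 and was called (adjusted p = 0.023). NOLC1, a chaperone of snoRNPs, had 354 CPM in DMSO replicate 1, 474 to 493 CPM in the other DMSO replicates and 358 to 389 CPM in SFN. Its log2 fold change was -0.30 ± 0.11 (edgeR adjusted p = 0.079) and -0.38 (adjusted p = 0.00053) without that replicate.

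Features that the choice of members did not use were counted next. In GENCODE 44, 8 members host 26 snoRNA genes in their spans, among them NOP56, GNL3 and NCL. Of these 8 hosts, 4 were called lower (POLR1C, NOP56, WDR43 and GNL3), at a median log2 fold change of -0.58, against 9 of the other 28 members and a median of -0.34. The E-box was in the promoter window of 4 of 11 matched members called lower and of 8 of the 19 others. The ETS motif was in 4 of 11 and 7 of 19. TGATGCAA, a motif of the amino acid stress factors, was in 0 of 30 and in 0.68% of the tested genes. These matches describe letters in a window.

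Transcript length varied from 507 to 12480 bases among the members, and the offset of DMSO replicate 1 moved with it. Over the 36 members, the log2 ratio of that library to the other DMSO libraries had r = -0.65 (Spearman -0.60) with log length, as a description over genes that share libraries. The fold change itself had r = -0.21 with all libraries and r = -0.41 (Spearman -0.36) without DMSO replicate 1. The longer 18 members had a median fold change of -0.45 on the log2 scale with all libraries and -0.48 without that replicate, and the shorter 18 had -0.32 and -0.20. Of the longer members 6 were called lower, and of the shorter 7. With a correction for transcript length, 16 members were called lower and 1 higher, beside 15.8% and 12% of all genes. The main edgeR fit, with TMM scaling and all libraries, did not call GAR1, HEATR1, NOP16 and NOLC1. These genes were called lower with that correction (edgeR adjusted p = 0.015, 0.042, 0.00056 and 0.046). TCOF1 lost its call with it (edgeR adjusted p = 0.082). The part of length in these results was not tested further.

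**Figure D4:**
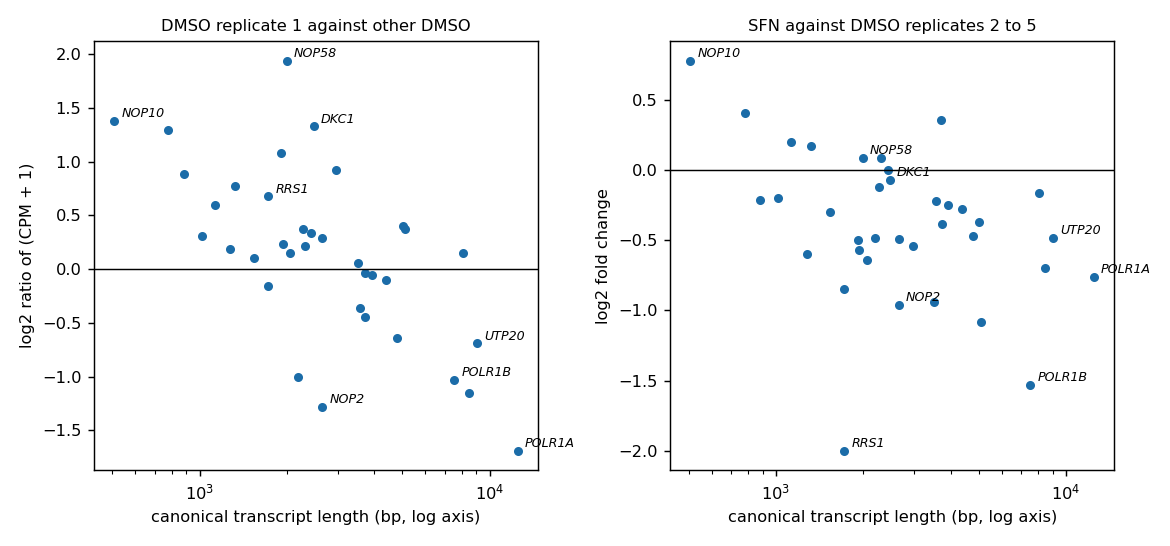
Canonical transcript length (log axis) of the 36 members against the log2 ratio of DMSO replicate 1 to the other DMSO replicates (left) and against the log2 fold change of SFN to DMSO replicates 2 to 5 (right). In the left panel short transcripts such as NOP10 lie above 0 and long ones such as POLR1A below, while in the right panel RRS1 and POLR1B lie lowest at very different lengths.

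Other genes of the pathway were read from lists that share no gene with the members. Of 158 tested, 38 were called lower (24.1%) and 6 higher (3.8%), with a median log2 fold change of -0.21. The 60S list had 17 of 54 lower and 2 higher, the 40S list 12 of 45 lower and 1 higher, the Pol I list 3 of 16 lower, the snoRNP list 2 of 12 lower and the nuclear exosome list 1 of 14 lower. Over all genes tested the shares were 13.9% lower and 9.07% higher. The Pol I list (18.8% lower), the snoRNP list (16.7%) and the exosome list (7.14%) lay near or below them. Without DMSO replicate 1 the calls over all lists were 61 lower and 22 higher, beside 23.5% and 22.5% of all genes.

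Beside POLR1B, the Pol I subunit POLR1G had 272 CPM in DMSO replicate 1, 78.8 to 93.2 CPM in the other DMSO replicates and 25.8 to 50.9 CPM in SFN. Its log2 fold change was -1.76 ± 0.35 (edgeR adjusted p = 0.0034) and -1.27 without that replicate. POLR1E, a further subunit, and TAF1B, of the complex that marks the Pol I promoter, each fell by 0.47 on that scale. Among 40S factors IMP3, which binds the U3 RNA, had 17.0 to 52.7 CPM in DMSO and 5.23 to 8.97 CPM in SFN, a log2 fold change of -1.91 ± 0.33 (edgeR adjusted p = 0.0014), or -1.48 without DMSO replicate 1. NOB1, the nuclease that makes the end of the 18S RNA, had -1.13, and RIOK2, a kinase of late 40S maturation, was higher at 0.58. NOL6, a processome protein, had -0.40 ± 0.13 (edgeR adjusted p = 0.047) and was called in 6 of 19 alternatives.

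Among 60S factors URB2 had 13.4 to 24.8 CPM in DMSO and 6.30 to 10.9 CPM in SFN, with a log2 fold change of -1.49 ± 0.20 (edgeR adjusted p = 0.00024). PELP1 had -1.38 ± 0.41 with all libraries and -0.67 without DMSO replicate 1, which held 260 CPM. RSL24D1 and SBDS, which act in late 60S maturation, were higher at 0.90 and 0.44. TGS1, which modifies the cap of small RNAs, and NUFIP1, an assembly factor of box C/D particles, had -0.76 and -0.64, and EXOSC2 of the exosome had -0.59.

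MYC was higher with SFN. It had 42.9, 49.1, 43.2, 48.0 and 48.8 CPM in DMSO replicates 1 to 5 and 106, 120, 104, 93.9 and 84.2 CPM in SFN replicates 1 to 5. All SFN libraries lay above all DMSO libraries, at 219% of the DMSO mean (log2 fold change 1.13 ± 0.11, edgeR adjusted p = 3.1e-05), and the call was made in 19 of 19 alternatives. Of the other 9 regulators of ribosomal gene transcription tested, 3 were lower and 1 higher. KDM2B, a histone demethylase, had -1.08 ± 0.13 (edgeR adjusted p = 0.00013), MNT, which competes with MYC for its partner MAX, had -0.75 ± 0.24 (adjusted p = 0.038), and BAZ2A, a silencer of ribosomal RNA genes, had -0.43 ± 0.14 (adjusted p = 0.049). MAF1, a repressor of Pol III, was higher at 0.42 ± 0.12 (edgeR adjusted p = 0.025). In the alternatives MNT was called in 8, BAZ2A in 7 and MAF1 in 9 of 19. Of 7 genes of the p53 arm of nucleolar stress 1 was called, CDKN1A, which encodes the cell cycle inhibitor p21, with 34.6 to 47.4 CPM in DMSO, 45.3 to 65.7 CPM in SFN and a log2 fold change of 0.46 ± 0.13 (edgeR adjusted p = 0.021).

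**Figure D5:**
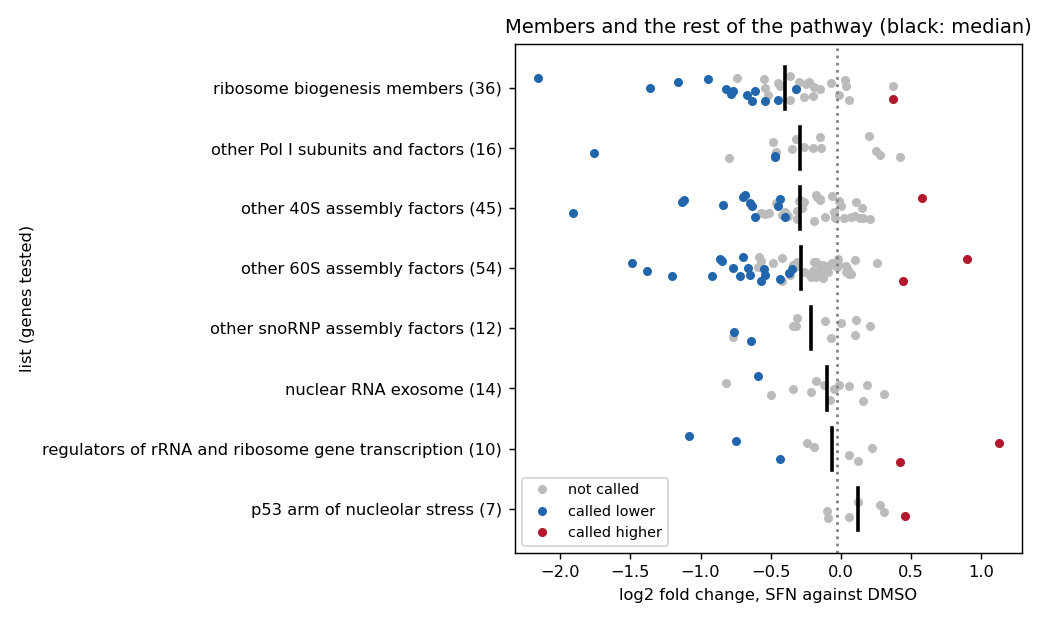
Log2 fold change of each tested gene in the member list and in 7 lists of other pathway genes, colored by call, with the median of each list in black and that of all genes tested dotted. The member list has its median at -0.39 and the 3 lists of Pol I, 40S and 60S factors have theirs at -0.29, -0.29 and -0.28, while the p53 list lies at 0.12.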

How the data were processed

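RNA was taken from RPE-1 cells and sequenced by the authors, whose methods name Lexogen QuantSeq libraries (reads from transcript 3′ ends) and the Bluebee pipeline, while the submitters' processing notes list FastQC, STAR, featureCounts, edgeR and the hg38 build. The deposited values are whole-number counts for each Ensembl gene and each replicate, which the authors had not normalized. The use of strand and of molecular identifiers is not given in the sources used here, so genes that overlap on opposite strands (such as GNL3 and PBRM1, or POLR1C and XPO5) may share reads.

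Counts were analysed with edgeR 4.0.16 in R 4.3.3: filterByExpr kept 13378 of 28380 genes, TMM factors scaled the libraries, and the quasi-likelihood functions glmQLFit and glmQLFTest compared SFN with DMSO, p-values being adjusted by Benjamini-Hochberg over every gene tested. Standard errors were derived from the fold change and its F statistic, and the 95% intervals built on them are approximate. The study's dream model was not run. Alternatives used limma 3.58.1 (voom), DESeq2 1.42.0, other scalings, no filter, a replicate block, a length correction and leaving out each replicate. Positions and lengths came from GENCODE 44. Motifs were searched as exact letters on both strands.

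The members and lists were chosen with earlier results of these data known. All 36 members are covered. In each list of other pathway genes, the 2 called genes with the largest and the 2 called genes with the smallest fold change are named, and all called genes of the regulator and p53 lists are named, as is MYC. Counts of replicate pairs differed by a chi-square of 3.5 to 243 for each degree of freedom, so no pair was counted as 1 sample. The main edgeR fit was tested on simulated counts that held no offset of DMSO replicate 1 and no length effect. It called 68.7% of planted log2 changes of 1 and 94.7% of those of 2, and 3.66% of its calls were false. Smaller changes were not simulated.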

Additional observations from a re-analysis of the deposited data

Results flagged for a closer look

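A value was taken up here when the gap between the highest or lowest library of a group and its nearest neighbour, divided by the group's range, was above 0.71, Dixon's critical value for 5 libraries. Of 122 groups examined 30 passed, where chance gives about 6.1, and 25 of the 30 were DMSO replicate 1. That library was highest for 10 members, with ratios of 1 for NOP58, 0.93 for DKC1, 0.88 for RRS1 and NPM1, 0.87 for NOP56, 0.85 for NHP2 and NOP16, 0.84 for WDR75, 0.77 for NOP10 and 0.75 for RRP1. It was lowest for 5 members, at 0.90 for POLR1A, 0.86 for NOLC1, 0.83 for UTP20, 0.82 for HEATR1 and 0.73 for POLR1B. Of the other pathway genes only those named above were examined. Among these, DMSO replicate 1 was highest for RSL24D1 (0.94), POLR1G (0.93), PELP1 (0.91), IMP3 (0.89), POLR1E (0.75) and NOB1 (0.74). It was lowest for URB2 (0.88) and KDM2B (0.77). Genes not examined could stand apart too, such as TAF1D, with 316 CPM in DMSO replicate 1 and 116 to 120 CPM in the other DMSO replicates. Its TMM factor (ratio 0.91) and its slope of log2 CPM on transcript length (ratio 0.85) were also the lowest of the DMSO libraries.

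The remaining cases were RRN3 in DMSO replicate 4 (highest, 0.73), PPAN in DMSO replicate 3 (lowest, 0.75), NOP10 in SFN replicate 2 (highest, 0.74), UTP20 in SFN replicate 5 (highest, 0.78) and KDM2B in SFN replicate 2 (lowest, 0.78). UTP20 had 133 CPM in that SFN library, within the range of the DMSO libraries, and 81.7 to 92.8 CPM in the other SFN libraries.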

How the results depend on the processing

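Of 19 alternatives, all called RRS1, POLR1B, POLR1C, UTP15, WDR43, WDR75, BYSL, NIP7, GNL3, RRP1 and MYC in the direction reported, while TCOF1 and NOP56 were called in 15. The median of the members minus that of all genes ranged from -0.46 to -0.34. Scaling by library size only gave 0 members higher, and no low-count filter gave 0 members and 3 other pathway genes higher, although in both edgeR fits 1 member was higher at an unadjusted p under 0.05 and DESeq2 called 1. Sample quality weights gave 4 members higher and 25 lower, and 33 other pathway genes higher and 70 lower, beside 29% and 30.2% of all genes. Leaving out each replicate gave 10 to 22 members lower, 1 to 3 higher, 24 to 61 other pathway genes lower and 3 to 22 higher. Over all genes tested, these fits called 10.8 to 23.5% lower and 6.66 to 22.5% higher. The most calls came without DMSO replicate 1 and the fewest members lower without SFN replicate 3. Over all genes tested, library size only called 6.12% higher and 16.2% lower, and no low-count filter called 4% and 6.05%.

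No direction is given for 5 genes whose sign changed with the setting. NPM1 was at 0 with DESeq2 and with its size factors, 0.19 with quality weights (limma adjusted p = 0.012) and 0.02 with the replicate block. FBL was at -0.01 with library size only, -0.02 with quantile normalization and -0.04 with length correction. NHP2 was at 0 with library size only and -0.04 with length correction. PPAN was at -0.04 with library size only, 0 with upper quartile scaling and -0.08 with quality weights. NOP58 was at 0.07 with quality weights. Leaving out replicates gave -0.08 to 0.17 for NPM1, -0.03 to 0.20 for FBL, -0.07 to 0.41 for NHP2, -0.11 to 0.14 for PPAN and -0.68 to 0.09 for NOP58. The cause was not tested.

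A replicate block gave 12 members lower and 1 higher, beside 11.4% and 6.81% of all genes. Among the genes named it left RRP9, MNT, BAZ2A, MAF1, CDKN1A and NOL6 above the threshold (edgeR adjusted p = 0.087, 0.076, 0.073, 0.065, 0.055 and 0.076). The samples share only a number: the correlations of same-numbered libraries ran from -0.309 to 0.545. Of the SFN libraries, only replicate 1 correlated best with the DMSO library of its own number. Depth limits NOP2 and PPAN, with as few as 21 and 24 counts in a library. The span of NOP2 also overlaps, on the same strand, a protein-coding gene of GENCODE that is absent from the counts.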
